A study of Mus musculus with 10 samples.

Results

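Messenger RNA of 9 genes for the writers of H2A ubiquitin and their partners was followed in mouse cerebral cortex from Brap conditional knockouts and controls. The 9 are Ring1, Rnf2, Bmi1, Pcgf1, Pcgf2, Pcgf3, Pcgf5, Cbx6 and Cbx7. They were chosen by name as subunits of Polycomb repressive complex 1 (PRC1), and each was found in the deposited count table by its Ensembl identifier, so 9 of 9 are present among 14276 genes. The tissue was cerebral cortex of C57BL/6 mice aged 3 months, and ribosome-depleted total RNA was sequenced in 10 libraries. Brap encodes a cytoplasmic ubiquitin ligase that binds BRCA1 and inhibits Ras signalling.

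The 5 libraries labelled BrapcKO carry Cre. In 3 of them (04, 07 and 21) the Brap alleles are flox/ko, and in 2 (05 and 06) they are flox/flox. The 5 control libraries lack Cre. In 3 of them (08, 22 and 23) the alleles are flox/wt, and in 2 (09 and 24) they are flox/flox. All 10 therefore carry at least 1 floxed allele, and Cre cannot be told apart from loss of Brap. The labels used here do not name the promoter that drives Cre, and do not say whether any 2 libraries came from 1 animal. The p-values measure variation among libraries, which may in part be technical.

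PRC1 attaches a single ubiquitin to histone H2A. RING1 and RNF2 (RING1B) are its alternative catalytic subunits, and each works only in a pair with a PCGF protein, which defines the kind of complex. Complexes with PCGF2 or BMI1 can hold a CBX protein, whose chromodomain reads the H3 lysine methylation written by PRC2, and these are called canonical. Complexes with PCGF1, PCGF3, PCGF5 or PCGF6 hold RYBP or YAF2 in place of CBX, are called variant, and lay down most H2A ubiquitin in embryonic stem cells. In neurons the Polycomb system keeps developmental genes silent.

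The libraries held 17188901 to 28991874 counts. Brap itself was no check of the labels, because a count over the whole gene need not fall when a part is excised. BrapcKO libraries 04, 05, 06, 07 and 21 had Brap at 110, 89.0, 101, 111 and 109 CPM (read counts scaled to library size), against 88.1, 94.3, 76.7, 84.2 and 98.6 CPM in controls, a log2 difference of 0.23 with an adjusted p of 0.18. Every direction stated for BrapcKO therefore rests on the label. The sample titles also carry a code of unstated meaning (B1 or B2), unevenly spread over the groups. B1 holds 4 BrapcKO and 2 control libraries, and B2 holds 1 BrapcKO library (21) and 3 controls. It was a term in the fits unless another fit is named. Y-linked genes were high in 4 of 5 BrapcKO libraries and in 1 of 5 controls. Summed over 4 such genes, BrapcKO 05, 06, 07 and 21 and control 23 had 263 to 288 CPM, and all other libraries 0 to 0.26 CPM. Sex as read from these genes is thus unevenly spread over the groups. Every difference between BrapcKO and control is therefore partly mixed with sex. Control 24 stood apart from the other controls for Rnf2 and Pcgf5, as given with those genes.

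Of the 9 genes, 1 fell in the libraries labelled BrapcKO and 0 rose. The one that fell was Cbx6, by 0.28 on the log2 scale. Over all genes 8.07% passed the same test in either direction and 4.95% were lower, so 1 of 9 is near the background and says nothing about the set. The median log2 fold change of the 9 was 0.016, against 0.0083 over all genes. The median size of the fold change, whatever its sign, was 0.11 for the 9 and 0.15 for all genes. The 2 catalytic subunits and Bmi1 had intervals around 0. Unless another is named, the test was edgeR's quasi-likelihood test with Benjamini-Hochberg adjustment over 14276 genes.

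**Figure D1:**
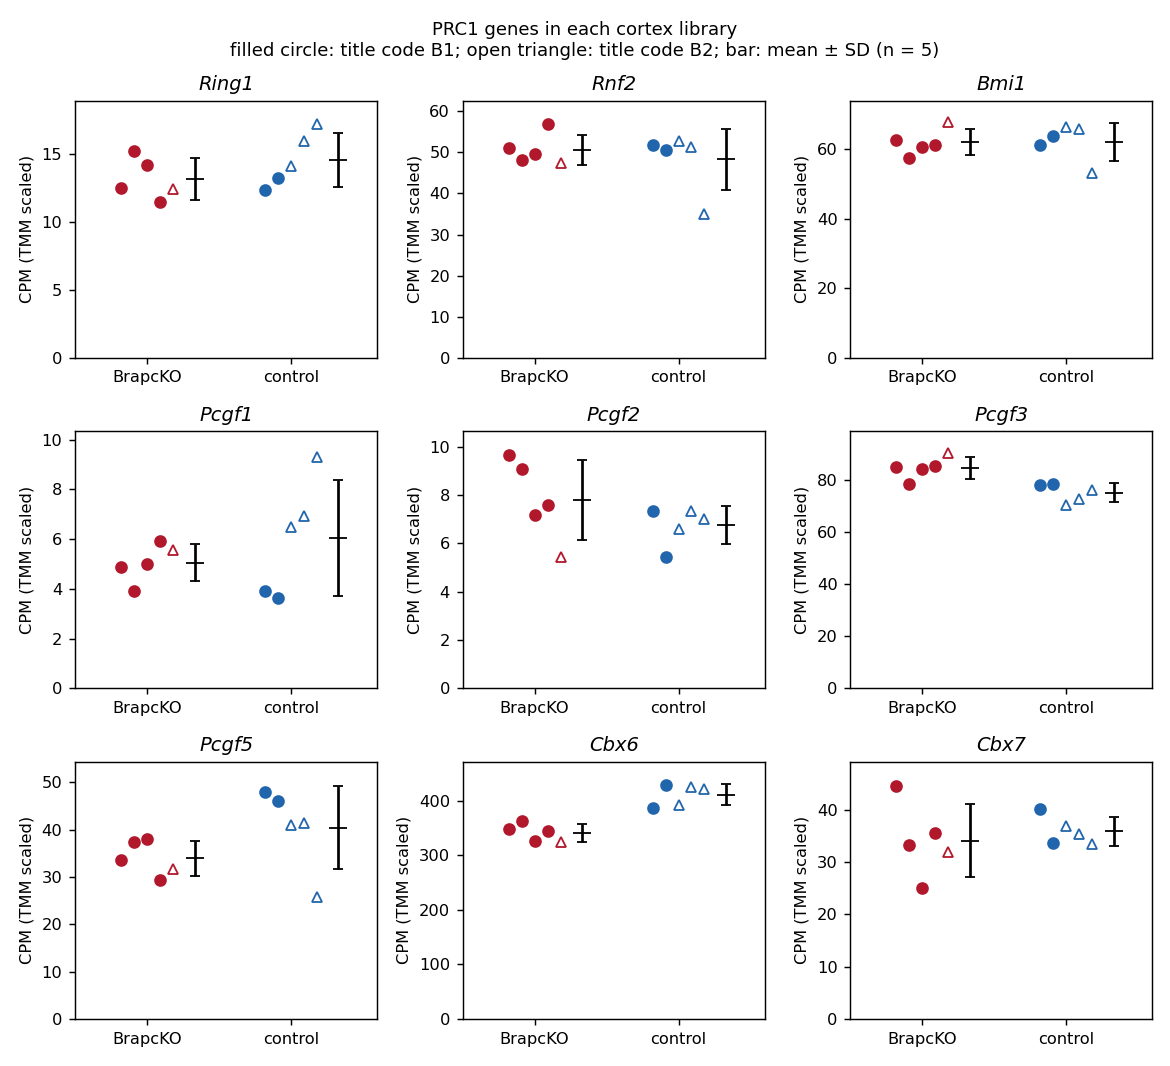
CPM of the 9 genes in each library, with the 5 libraries labelled BrapcKO left of the 5 controls; filled circles are code B1, open triangles B2, and bars the mean and SD of a group. Cbx6 lies at 324 to 363 CPM in BrapcKO libraries and 388 to 430 CPM in controls without overlap, and Rnf2 and Pcgf5 have one low control, library 24.

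Cbx6 encodes a CBX protein of canonical PRC1 that is abundant in brain. Its gene (ENSMUSG00000089715.12) lies on the minus strand at chr15:79823896-79834688 in GRCm38, and Cbx7 (ENSMUSG00000053411.16), another CBX gene on the same strand, lies 81.1 kb from it at chr15:79915807-79971119. The promoters of this pair are shown because Cbx6 is the gene that passed the test and Cbx7 its neighbour that did not. RefSeq windows of 250 bases before to 50 after the start (GRCm38.p6) lie at chr15:79834284-79834583 for Cbx6 and chr15:79932597-79932896 for Cbx7, both on the minus strand and printed 5′ to 3′ along the gene. Capitals mark the E-box CACGTG, known to be bound by MAX and MGA, and the GC box GGGCGG, known to be bound by SP1, on either strand (CCGCCC is the GC box read on the other strand).
Cbx6 promoter: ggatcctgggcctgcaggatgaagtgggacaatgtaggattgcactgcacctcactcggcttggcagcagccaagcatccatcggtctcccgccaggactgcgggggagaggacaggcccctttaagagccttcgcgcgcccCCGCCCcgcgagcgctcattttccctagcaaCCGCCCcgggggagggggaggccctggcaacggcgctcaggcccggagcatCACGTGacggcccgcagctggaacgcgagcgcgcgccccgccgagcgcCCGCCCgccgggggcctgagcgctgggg
Cbx7 promoter: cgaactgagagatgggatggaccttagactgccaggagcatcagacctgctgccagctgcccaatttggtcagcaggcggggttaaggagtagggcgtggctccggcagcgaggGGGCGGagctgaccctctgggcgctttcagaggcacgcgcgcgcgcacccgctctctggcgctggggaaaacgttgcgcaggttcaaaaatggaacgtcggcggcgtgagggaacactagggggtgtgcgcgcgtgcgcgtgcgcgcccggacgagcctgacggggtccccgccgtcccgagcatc
The Cbx6 window holds 1 E-box and 3 GC boxes, and the Cbx7 window holds 1 GC box and 0 E-boxes. Among 32851 promoter windows of the same length, 7.15% hold the E-box and 35.7% the GC box. Both windows are rich in CpG, with 31 CG dinucleotides in Cbx6 and 33 in Cbx7, against a median of 7 and an upper quartile of 20. TGACGT, the core of the cAMP response element, is absent from both windows and present in 7.51% of all windows. These matches describe letters and not bound sites.

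BrapcKO libraries 04, 05, 06, 07 and 21 held Cbx6 at 348, 363, 327, 346 and 324 CPM, against 388, 430, 393, 426 and 422 CPM in controls 08, 09, 22, 23 and 24. Every BrapcKO library was below every control, as for 3.71% of all genes. The means were 342 ± 16.1 CPM in BrapcKO and 412 ± 19.7 CPM in controls (SD, n = 5 each), a fall of 17.6% (log2 fold change -0.28, SE 0.071, 95% interval -0.43 to -0.13, adjusted p = 0.031). Within B1 the fold change was -0.24 (adjusted p = 0.17, with 2.12% of genes called lower). Within B2, where the single BrapcKO library is assumed to vary like the 3 controls, it was -0.36 (adjusted p = 0.35, with 0.119% of genes called lower). With a score of Y-linked genes as a further term the fold change was -0.30 and the adjusted p 0.16 (1.63% of genes called lower), and with scaling by library total they were -0.25 and 0.052 (3.86% called lower). Of 20 alternatives, filterByExpr removed 0 genes and so repeats the main fit. Among the 20, 11 kept the call, including that one, DESeq2 (adjusted p = 0.00081), limma-voom (0.027) and group as the only term (0.044). Leaving out any one of 5 libraries ended it, at fold changes of -0.25 to -0.28: control 09 (adjusted p = 0.15), control 23 (0.068), and BrapcKO 06 (0.055), 07 (0.058) and 21 (0.18). Of the Cbx6 exon sequence 5.31% (563 of 10609 bp) is shared on the same strand with the annotated gene Npcd, which is not among the genes of the table, so its reads there cannot be told apart.

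Cbx7 encodes the CBX protein that is prominent in embryonic stem cells. It stood at 44.5, 33.3, 25.1, 35.4 and 32.0 CPM in BrapcKO libraries, against 40.1, 33.6, 36.8, 35.4 and 33.5 CPM in controls. BrapcKO libraries held both the highest and the lowest value, and the controls lay between them. BrapcKO over control gave -0.11 on the log2 scale (SE 0.14, 95% interval -0.41 to 0.19, adjusted p = 0.70).

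The ligases come next by role. Rnf2 (ENSMUSG00000026484.13, chr1:151458004-151500955, minus strand) encodes the RING1B catalytic subunit. It was at 51.0, 48.2, 49.5, 56.8 and 47.4 CPM in BrapcKO libraries, against 51.8, 50.5, 52.8, 51.3 and 34.9 CPM in controls. The 2 groups coincide apart from control 24, which was far below every other library. The fold change was 0.016 (SE 0.12, 95% interval -0.24 to 0.27, adjusted p = 0.96).

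Ring1 (ENSMUSG00000024325.8, chr17:34020792-34024680, minus strand) encodes the other catalytic subunit. It was at 12.5, 15.2, 14.2, 11.4 and 12.4 CPM in BrapcKO libraries, against 12.4, 13.2, 14.1, 15.9 and 17.2 CPM in controls. The ranges overlap over most of their length. The log2 difference was -0.086 (SE 0.13, 95% interval -0.36 to 0.19, adjusted p = 0.75). The Ring1 interval includes a fall of the size seen in Cbx6, and the Rnf2 interval ends just short of it on either side.

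Pcgf5 and Pcgf3 are a closely related pair of variant PRC1 subunits that act together with AUTS2 and casein kinase 2 in neurons. After Cbx6 they had the smallest unadjusted p-values of the 9 (0.026 for Pcgf5 and 0.038 for Pcgf3), with opposite signs, and neither passed the adjusted threshold. Over all genes, 3166 had an unadjusted p under 0.05. Their promoter windows, at chr19:36348079-36348378 for Pcgf5 (the first of its 3 RefSeq starts) and chr5:108461009-108461308 for Pcgf3, both on the plus strand, are shown as the windows of a related pair whose values went opposite ways, with capitals as above.
Pcgf5 promoter: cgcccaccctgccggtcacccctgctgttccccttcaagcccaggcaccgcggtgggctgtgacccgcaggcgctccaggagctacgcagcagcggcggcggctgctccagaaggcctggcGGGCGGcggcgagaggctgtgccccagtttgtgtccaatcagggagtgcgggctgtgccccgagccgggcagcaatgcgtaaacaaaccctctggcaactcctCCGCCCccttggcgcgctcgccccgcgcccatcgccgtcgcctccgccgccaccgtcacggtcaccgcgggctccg
Pcgf3 promoter: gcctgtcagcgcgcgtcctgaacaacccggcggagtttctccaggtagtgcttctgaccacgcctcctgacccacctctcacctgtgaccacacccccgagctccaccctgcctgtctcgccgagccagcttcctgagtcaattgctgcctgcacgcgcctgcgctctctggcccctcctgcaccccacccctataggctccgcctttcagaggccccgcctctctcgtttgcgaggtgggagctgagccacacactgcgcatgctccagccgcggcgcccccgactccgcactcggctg
The Pcgf5 window holds 2 GC boxes and 34 CG dinucleotides, and the Pcgf3 window holds 0 GC boxes and 23 CG dinucleotides. Neither holds an E-box or TGACGT.

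Pcgf5 (ENSMUSG00000024805.16, chr19:36348309-36460970, plus strand) was at 33.6, 37.4, 38.1, 29.4 and 31.7 CPM in BrapcKO libraries, against 47.9, 46.1, 41.0, 41.5 and 25.9 CPM in controls. Of the controls, 4 lay above every BrapcKO library and control 24 lay below all 9 other libraries. Over all libraries the fold change was -0.35 (SE 0.14, 95% interval -0.65 to -0.05, adjusted p = 0.16). Without control 24 it was -0.42 with an adjusted p of 0.0099, in a fit where 6.16% of all genes were called lower. The call for Pcgf5 therefore turns on 1 library.

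Pcgf3 (ENSMUSG00000033623.13, chr5:108461232-108506976, plus strand) was at 85.1, 78.6, 84.3, 85.4 and 90.5 CPM in BrapcKO libraries, against 78.1, 78.6, 70.3, 73.0 and 76.4 CPM in controls. The lowest BrapcKO library (78.57) and the highest control (78.56) all but met, so the groups were formally apart, as for 3.12% of genes with BrapcKO above. It differed by 0.17 (log2, SE 0.073, 95% interval 0.01 to 0.33, adjusted p = 0.19). Per length of exon, the ratio of Pcgf5 to Pcgf3 was 0.305 ± 0.045 in BrapcKO and 0.407 ± 0.085 in controls (SD, n = 5 each). The controls other than 24 lay at 0.43 to 0.464, above the BrapcKO range of 0.26 to 0.359, and control 24 lay below it at 0.256.

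**Figure D2:**
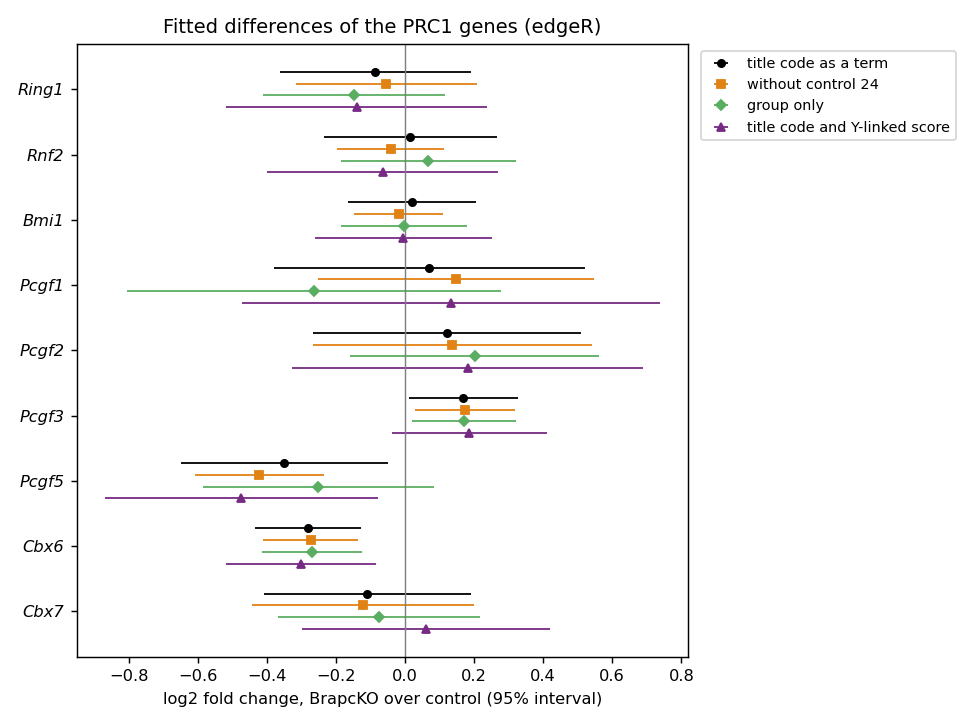
log2 fold change of the 9 genes, BrapcKO over control, with 95% intervals from edgeR under 4 settings: title code as a term, the same without control 24, group as the only term, and title code with the Y-linked score. Cbx6 lies below 0 with its whole interval in each (-0.43 to -0.13 with title code as a term), and Pcgf5 has a narrower interval without control 24 (-0.42).

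Of the canonical PCGF subunits, Bmi1 (ENSMUSG00000026739.13, chr2:18677018-18686629, plus strand) encodes PCGF4 and is known for silencing the Cdkn2a locus in neural stem cells. It was at 62.5, 57.3, 60.7, 61.2 and 67.6 CPM in BrapcKO libraries, against 61.1, 63.6, 66.3, 65.8 and 53.1 CPM in controls. Again control 24 was the lowest of the 10, and the groups overlap. The fold change was 0.020 (SE 0.086, 95% interval -0.17 to 0.21, adjusted p = 0.93), and only Cbx6 and Pcgf3 had narrower intervals among the 9.

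Pcgf2 (ENSMUSG00000018537.16, chr11:97688823-97700497, minus strand) encodes MEL18, the alternative to BMI1. It was at 9.65, 9.10, 7.18, 7.57 and 5.45 CPM in BrapcKO libraries, against 7.33, 5.45, 6.62, 7.37 and 7.01 CPM in controls. The 2 highest values were from BrapcKO libraries of code B1, and the lowest BrapcKO library was the one of code B2. The fold change was 0.12 (SE 0.18, 95% interval -0.27 to 0.51, adjusted p = 0.75). It was 0.39 within B1 and -0.37 within B2, where 1 BrapcKO library stands against 3 controls.

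Pcgf1 (ENSMUSG00000069678.10, chr6:83077869-83080855, plus strand) encodes the PCGF subunit that joins BCOR and KDM2B, the protein that brings PRC1 to unmethylated CpG islands. It was the lowest of the 9 in CPM in most libraries, at 4.87, 3.93, 5.01, 5.91 and 5.56 CPM in BrapcKO libraries, against 3.92, 3.65, 6.48, 6.95 and 9.29 CPM in controls. The 3 high controls are those of code B2. The fold change for BrapcKO over control was 0.071 (SE 0.21, 95% interval -0.38 to 0.52, adjusted p = 0.89), and -0.26 without the code as a term. It was 0.38 within B1 and -0.45 within B2.

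Pcgf1 was the only one of the 9 that differed between the title codes. It was at 5.56 to 9.29 CPM in B2 libraries and 3.65 to 5.91 CPM in B1 libraries, a log2 difference of 0.67 for B2 over B1 (SE 0.21, 95% interval 0.22 to 1.12, adjusted p = 0.033). The code called 25.1% of all genes, so 1 of 9 is below that share. Across 14271 genes with an annotated exon length, the B2 over B1 difference ran with length (Spearman rho -0.40, a description over genes, which are not independent), and the Pcgf1 exons span 1649 bp against a median of 4584 bp. The part of length in the Pcgf1 difference was not tested.

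Control 24 was set beside the 2 other controls of its code. Against the mean of controls 22 and 23 it was lower by 0.57 (log2) for Rnf2, 0.67 for Pcgf5 and 0.31 for Bmi1, and 6.12%, 3.61% and 18.5% of all genes were lower still. Pcgf1 and Ring1 were higher in it, by 0.47 and 0.20, and 90.3% and 71.1% of all genes had lower differences. Over 14271 genes the difference ran with exon length at a Spearman rho of -0.16. Of the 9 genes Pcgf5 has the longest exons (12629 bp) and Pcgf1 the shortest (1649 bp). The part of length was not tested. Rnf2 and Bmi1 are thus lowest, and Ring1 and Pcgf1 highest, in the same library.

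By genotype the data hold 2 contrasts, flox/ko Cre+ over flox/wt Cre- and flox/flox Cre+ over flox/flox Cre-, and 0 of the 9 passed in either. Of all genes, 4.84% and 0.736% passed in these contrasts. For Cbx6 the fold changes were -0.25 (adjusted p = 0.16) in the flox/ko contrast and -0.31 (adjusted p = 0.24) in the flox/flox contrast, and the difference between them was 0.060 (95% interval -0.24 to 0.36, adjusted p = 0.95). For Pcgf5 they were -0.55 (adjusted p = 0.064) and -0.045 (adjusted p = 0.95). The test of that difference gave -0.50 (95% interval -1.01 to 0.0046, adjusted p = 0.82), and control 24 is 1 of the 2 flox/flox controls. The difference was called for 0.0% of genes, and 873 genes had an unadjusted p under 0.05 for it. The call for Pcgf5 in the flox/ko contrast was made when control 09, control 24 or BrapcKO 21 was left out (adjusted p = 0.021, 0.020 and 0.045), in fits that called 5.92%, 5.9% and 2.26% of all genes.

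Levels can be compared between genes only per length, and CPM per kilobase of exon was used. Cbx6 was the most abundant, at 32.2 ± 1.51 in BrapcKO and 38.8 ± 1.86 in controls (SD, n = 5 each). Bmi1 followed at 15.6 ± 0.94 and 15.6 ± 1.35, then Rnf2 at 12.3 ± 0.91 and 11.7 ± 1.80, and Pcgf3 at 8.88 ± 0.44 and 7.89 ± 0.37. Cbx7, Ring1, Pcgf1, Pcgf5 and Pcgf2 lay between 1.92 and 5.53 on average in either group. Libraries of Cbx6 did not overlap those of Bmi1, and Pcgf3 did not overlap Cbx7. Bmi1 and Rnf2, Rnf2 and Pcgf3, and each neighbouring pair from Cbx7 down did overlap, when any library of one is set against any of the other. Within a library, though, Cbx6, Bmi1, Rnf2, Pcgf3 and Cbx7 stood in that order in 10 of 10 libraries. Further down the order was less regular: Cbx7 was above Ring1 in 8 of 10 libraries, Ring1 above Pcgf1 in 8, Pcgf1 above Pcgf5 in 7 and Pcgf5 above Pcgf2 in 9.

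Among the 5 PCGF genes of the set, per length, Bmi1 made up 48.0% of the sum in BrapcKO and 48.3% in controls. Pcgf6, at 8.055 to 13.65 CPM, is outside the set and not in the sum. Pcgf3 made up 27.4% ± 0.42 in BrapcKO and 24.5% ± 1.87 in controls. Pcgf1, Pcgf5 and Pcgf2 held 9.44%, 8.34% and 6.85% in BrapcKO, against 11.4%, 9.92% and 5.94% in controls. Of the ligases, Rnf2 exceeded Ring1 by 3.07 ± 0.54 times in BrapcKO and 2.68 ± 0.66 times in controls. Bmi1 exceeded Pcgf2 by 7.40 ± 2.18 times in BrapcKO and 8.26 ± 1.42 times in controls. Cbx7 was at 0.163 ± 0.031 of Cbx6 in BrapcKO and 0.143 ± 0.018 in controls. In each of these 3 ratios the ranges of the groups overlap. With the longest transcript as the length, the 4 leading genes kept their order and Pcgf1 came next after them. On that length the PCGF means over the 10 libraries were 17.2 (Bmi1), 10.4 (Pcgf3), 6.05 (Pcgf1), 5.78 (Pcgf5) and 2.93 (Pcgf2). The shares above therefore depend on the length used.

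**Figure D3:**
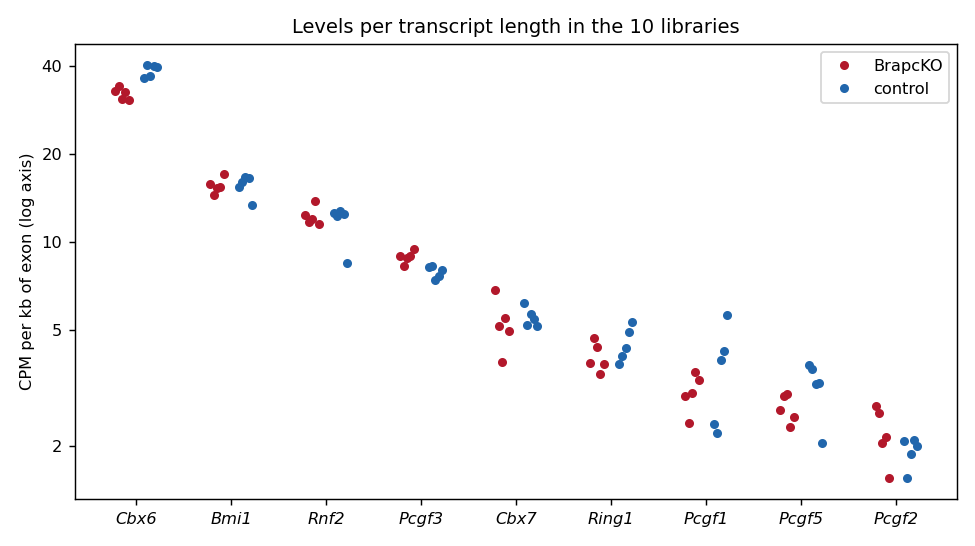
CPM per kilobase of exon union for the 9 genes on a log axis, each point a library, BrapcKO left of control. Cbx6 stands apart at 30.6 to 40.5 in CPM per kilobase, and each of the 5 lowest genes overlaps the next.

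Genes that work with or against the 9 were taken by list, and no list was tested as a set. Over all genes 8.07% were called in either direction. Of 7 other canonical PRC1 genes 0 passed (median log2 fold change -0.16). The 2 with the smallest p were Cbx8, a further CBX gene, at -0.26 (adjusted p = 0.27), and Phc1, for a Polyhomeotic subunit, at -0.16 (adjusted p = 0.46). Cbx8 was at 9.18, 11.5, 10.3, 10.99 and 9.63 CPM in BrapcKO libraries, against 12.1, 10.7, 13.2, 15.8 and 12.2 CPM in controls, and only control 09 lay within the BrapcKO range. Phc1 was at 34.5, 36.7, 31.5, 30.9 and 19.4 CPM in BrapcKO libraries, against 33.3, 33.5, 23.6, 26.3 and 30.4 CPM in controls. Its 4 lowest values are those of the B2 libraries, and it was lower in B2 than in B1 by 0.50 (log2 difference -0.50, adjusted p = 0.0081).

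Where 4.95% of all genes were called lower and 3.12% higher, 2 of 24 other variant PRC1 genes fell and 0 rose (median 0.033). They were the paralogues Bcorl1 (-0.53, SE 0.13, adjusted p = 0.021) and Bcor (-0.44, SE 0.12, adjusted p = 0.049), corepressors of which BCOR is the partner of PCGF1. Bcorl1 was at 19.8, 27.9, 19.1, 21.5 and 17.2 CPM in BrapcKO libraries, against 31.9, 32.7, 21.4, 28.3 and 23.2 CPM in controls. Both genes are X-linked, their groups overlap, and both were lower in B2 than in B1 (-0.39 and -0.45). Adding the Y-linked score to the fit put them at -0.73 (Bcorl1, adjusted p = 0.029) and -0.56 (Bcor, adjusted p = 0.10). Bcor was at -0.29 (adjusted p = 0.28) without control 09, and at -0.28 (0.42) with group as the only term. It kept the call in 5 of 20 alternatives, 1 of which (filterByExpr) repeats the main fit. Bcorl1 kept it in 14, and lost it without control 08 (0.080), control 09 (0.091) or BrapcKO 21 (0.084). With the code left out of the fit 0 of the 24 were called, and 4.32% of all genes.

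Where 4.95% of all genes were called lower and 3.12% higher, 1 of 13 PRC2 genes fell and 0 rose (median 0.025). It was Epop, which links PRC2 to elongin B and C, at 13.8, 12.9, 7.37, 8.41 and 8.11 CPM in BrapcKO libraries, against 29.4, 34.4, 37.8, 43.0 and 39.5 CPM in controls. Every control was above 2 times the highest BrapcKO library. The fold change was -1.84 (SE 0.20, adjusted p = 0.00032), and -1.84 and -1.83 in the flox/ko and flox/flox contrasts (adjusted p = 0.0057 and 0.040). Epop lies 59.1 kb from Pcgf2 on chromosome 11, and Pcgf2 had the values given above. The catalytic and core PRC2 genes (Ezh1, Ezh2, Eed and Suz12) did not pass.

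Ubiquitin is taken off H2A by BAP1 with an ASXL partner and by USP16, USP21, USP3 and MYSM1. Of these 8 genes 0 passed (median -0.11). The smallest p-values were for Asxl3 (-0.25, adjusted p = 0.12) and Asxl1 (-0.17, adjusted p = 0.21). Of 6 readers of H2A ubiquitin 0 passed (median 0.082), with Dnajc2 at 0.22 (adjusted p = 0.25) and Jarid2 at -0.14 (adjusted p = 0.31). The Dnajc2 value rests on BrapcKO 21, without which it was 0.0011.

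Of the 16 H2A genes listed, 9 are in the table and 0 passed for BrapcKO over control (median -0.0065). They did follow the title code, with 7 of 9 higher in B2 and 0 lower, where 13.4% of all genes were called higher. Their exons span 520 to 2482 bp, apart from H2afy at 6809 bp, against a median of 4584 bp. Over all genes with an annotated length, the B2 over B1 difference ran with length (Spearman rho -0.40). The part of length in the H2A differences was not tested. H2afz, for the H2A.Z variant, was at 48.0 to 56.4 CPM in B2 libraries and 3.51 to 6.75 CPM in B1 libraries, a log2 difference of 3.71 (SE 0.16, adjusted p = 1.7e-09). Summed over the 9, H2A genes gave 214 to 248 CPM in B2 libraries and 108 to 118 CPM in B1 libraries. The BrapcKO libraries gave 108 to 222 CPM and the controls 112 to 248 CPM.

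Of 91 developmental genes known as Polycomb targets in embryonic stem cells, 23 are in the table, and no Hox gene is among them. Of the 23, 2 rose and 1 fell (median 0.047), where 3.12% of all genes were called higher and 4.95% lower. Isl1, a homeobox gene of striatal and motor neurons, was at 4.67, 4.32, 4.39, 5.62 and 8.29 CPM in BrapcKO libraries, against 1.07, 2.67, 3.91, 3.42 and 1.27 CPM in controls (1.42, SE 0.31, adjusted p = 0.015). Its groups did not overlap, as for 3.12% of all genes with BrapcKO above. Dlx6, a gene of inhibitory neurons, rose by 0.70 (adjusted p = 0.012), and Lhx2, a gene of cortical progenitors and upper layers, fell by 0.50 (adjusted p = 0.034). The Dlx6 groups overlapped. Lhx2 lay at 24.8 to 31.2 CPM in BrapcKO and 33.7 to 51.7 CPM in controls, apart as for 3.71% of all genes with BrapcKO below. With group as the only term Dlx6 was at 0.42 (adjusted p = 0.36) and Isl1 at 1.14 (0.10), and Dlx6 was 0.70 higher in B2 than in B1 (adjusted p = 0.0040). Both lost the call without control 08 (adjusted p = 0.054 for Dlx6 and 0.065 for Isl1) and without BrapcKO 21 (0.11 and 0.15). Lhx2 lost it in 10 of 20 alternatives, with -0.82 within B2 (adjusted p = 0.22), -0.33 within B1 (0.16) and -0.34 without BrapcKO 21 (0.25). It was also lost without control 08 (0.052), 09 (0.097) or 23 (0.059) and without BrapcKO 06 (0.062) or 07 (0.064).

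**Figure D4:**
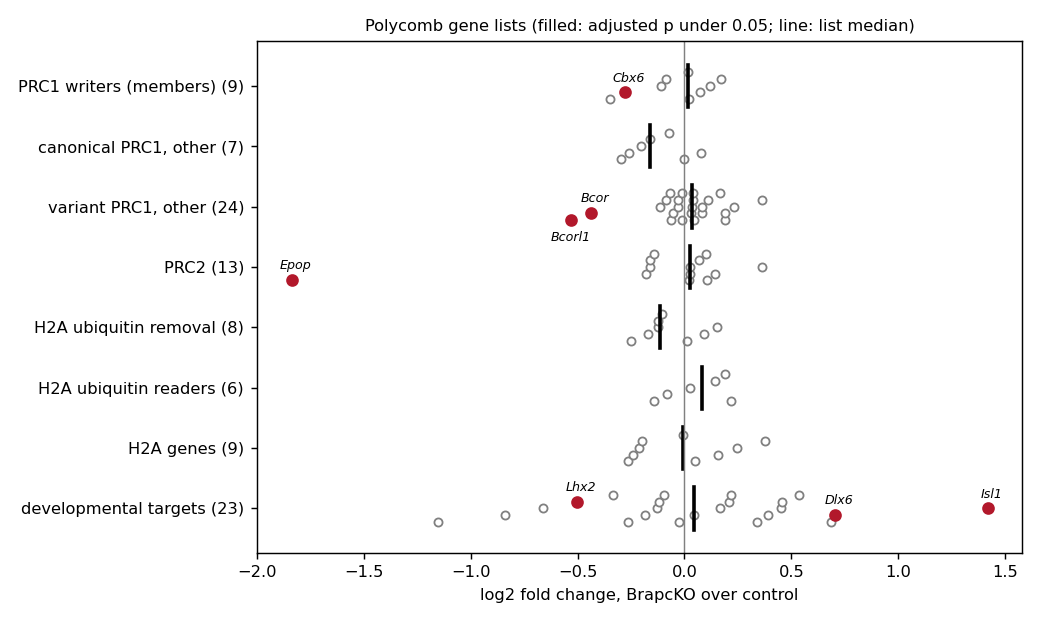
log2 fold change, BrapcKO over control, of each gene in the 9 writers and 7 other lists, with filled points for adjusted p under 0.05 and a line at each list's median. Epop at -1.84 and Isl1 at 1.42 lie outside the rest, and the list medians lie between -0.16 and 0.082.

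Some markers of cell types differed between the same groups, where 3.12% of all genes were called higher and 4.95% lower. Of 8 markers of cortical excitatory neurons 2 fell (Camk2a and Neurod6) and 0 rose. Slc17a7 had a positive fold change without a call (0.31, adjusted p = 0.19). The 7 others were negative, with Neurod2 nearest to 0 at -0.086. All 8 were present in all libraries, and they summed to 2606 to 3152 CPM in BrapcKO and 2907 to 3587 CPM in controls. Of 8 inhibitory neuron markers 4 rose (Gad1, Gad2, Slc32a1 and Sst). The groups overlapped for Slc32a1, at 47.0 to 101.5 CPM in BrapcKO (mean 62.7) and 32.8 to 90.8 CPM in controls (mean 61.4). They also overlapped for Sst, at 82.8 to 156 CPM in BrapcKO and 72.9 to 125 CPM in controls. Vip (-0.45, adjusted p = 0.14), Pvalb (-0.27) and Dlx1 (-0.13) had negative fold changes without a call, and Lhx6 was at 0.15. The 8 summed to 1056 to 1708 CPM in BrapcKO and 836 to 956 CPM in controls. The largest parts were Gad1 (442 to 705 CPM in BrapcKO) and Gad2 (383 to 635 CPM in BrapcKO). Of 8 striatal neuron markers 5 rose (sum of the 8: 629 to 1386 CPM in BrapcKO, 354 to 848 CPM in controls). Of 8 microglia markers 3 rose, the complement genes C1qa (55.9 to 173 CPM in BrapcKO, 20.9 to 32.2 CPM in controls), C1qb (27.7 to 111 CPM in BrapcKO, 12.9 to 20.8 CPM in controls) and C1qc (32.5 to 122 CPM in BrapcKO, 13.8 to 18.7 CPM in controls). The 8 summed to 1226 CPM in BrapcKO 05 and 448 to 517 CPM in the other BrapcKO libraries, against 315 to 347 CPM in controls. Of 8 astrocyte markers 1 rose. It was Gfap, at 329 to 1228 CPM in BrapcKO and 125 to 154 CPM in controls (log2 fold change 2.05, adjusted p = 0.020). The 8 summed to 4763 to 8835 CPM in BrapcKO and 5165 to 6968 CPM in controls.

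Of the remaining lists 0 markers passed. Those of oligodendrocytes summed to 2411 to 3331 CPM in BrapcKO and 3284 to 4542 CPM in controls. Those of oligodendrocyte precursors summed to 234 to 291 CPM in BrapcKO and 217 to 285 CPM in controls, and those of endothelial and mural cells to 145 to 339 CPM in BrapcKO and 118 to 214 CPM in controls. No marker was at 0 in any library. In these bulk samples fewer cells of a type and less RNA per cell cannot be told apart, and the part of cell makeup in the values of Cbx6, Isl1, Dlx6 and Lhx2 was not tested.

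Genes whose pattern over the 10 libraries was most like that of the 3 leading genes were found after the group and code means were removed, by Pearson's r of log2 CPM (n = 10 libraries). For Cbx6 these were Mn1 (0.96), Usp36 (0.96) and Ttc41 (0.95). For Pcgf5 they were Picalm (0.99), Zcrb1 (0.99) and Myl12a (0.99), and for Pcgf3 they were Vti1a (0.98), Sema4a (0.98) and Bet1l (0.95). They are the highest found in the table of 14276 genes over 10 points, with predicted or unnamed genes and all genes of the lists left out. They stand as descriptions only.

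Pcgf1 and Pcgf2 rest on 70 to 241 and 106 to 211 reads per library, and their intervals for BrapcKO over control are the widest of the 9. Whether counting used strand is not stated, and Cbx7 shares 100 bp of exon with Apobec3 and Rnf2 158 bp with Trmt1l, on the opposite strand.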

How the data were processed

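Ribosome-depleted total RNA from cerebral cortex was sequenced in 10 libraries. The authors deposited raw read counts per gene in 1 table. The submitters' processing notes name FastQC, Subread, featureCounts, edgeR and DESeq2 and the builds GRCm38 and mm10, with settings and versions not given in the sources used here. Strand use was not stated, and genes of low expression are not in the table: each of its 14276 genes reached 0.582 CPM in at least 5 libraries. Identifiers were matched to GENCODE M21 (14271 of 14276 matched). Groups came from the labels and the title code from the sample titles.

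Counts were tested with edgeR 4.0.16 in R 4.3.3 (TMM scaling, robust quasi-likelihood fit, title code and group as terms, Benjamini-Hochberg adjustment over 14276 genes, threshold 0.05), with no further filter, since filterByExpr removed 0 genes. Genotype contrasts used 4 genotype groups and title code. The rule for naming took all 9 genes, called genes of each list (at most 6), or the 2 with the smallest p where a list had none. CPM values use TMM library sizes, and levels are CPM per kilobase of the union of exons. Intervals are 95%. Alternatives were limma 3.58.1 (voom), DESeq2 1.42.0, other scalings, terms and filters, and leaving out each library. The code was tested on simulated data. Promoters came from RefSeq (GRCm38.p6) and matched 8 of 9 genes. The 9 genes and all lists were chosen with earlier results of these data known. No 2 libraries of the same group were alike within sampling noise (chi-square per degree of freedom 7.15 to 96.3). One gene of a list is not reported here.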

Additional observations from a re-analysis of the deposited data

Results flagged for a closer look

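In 42 groups of 5 libraries over 21 genes (the 9 and the named genes of the lists), 2 had a library far from the rest of its group by Dixon's test, and chance alone gives about 1 in 20. Rnf2 was at 34.9 CPM in control 24, below the other controls at 50.5 to 52.8 CPM. Dnajc2 was at 54.2 CPM in BrapcKO 21, above the other BrapcKO libraries at 26.5 to 31.0 CPM. BrapcKO 21 is the single BrapcKO library of code B2, and Dnajc2 was higher in B2 than in B1 by 0.62. Without BrapcKO 21 the Dnajc2 fold change for BrapcKO over control was 0.0011, against 0.22 with it.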

How the results depend on the processing

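No paired analysis was possible because the groups share no replicate numbers. With group as the only term 261 genes were higher and 356 lower, against 446 and 706 with the title code, 0 of the variant PRC1 list were called, and Bmi1 (-0.0025), Pcgf1 (-0.26), Asxl3 (0.013) and Phc1 (0.058) changed sign. With the Y-linked score as a further term 95 were higher and 233 lower, 0 of the 9, 1 variant PRC1 gene and 1 developmental gene were called, and Rnf2 was at -0.065, Bmi1 at -0.0047 and Cbx7 at 0.061. Within B1 113 were higher and 303 lower, 0 of the 9, 0 variant and 0 developmental genes were called, and Ring1 was at 0.060 and Bmi1 at -0.045. Within B2 40 were higher and 17 lower, 0 of the 9, 0 variant and 0 developmental genes were called, and Pcgf1 was at -0.45 and Pcgf2 at -0.37.

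DESeq2 called 709 genes higher and 973 lower, 11.8% of all genes, and 5 developmental genes in either direction. Scaling to the library total called 0 of the 9. It called 1 variant PRC1 gene, as did limma-voom, RLE size factors and a minimum of 1 CPM in every library. Of all genes, scaling to the library total called 515 higher and 551 lower. Limma-voom called 437 and 735, and RLE size factors 453 and 692. The minimum of 1 CPM, which kept 12702 genes, called 419 higher and 640 lower. Pcgf1 was at -0.034 with limma-voom. With the title code as the only term Cbx6 was 0.093 higher in B2. With the genotype groups as the only terms Pcgf1 was at -0.089 in the flox/ko contrast, and Ring1 at -0.049 and Pcgf5 at 0.069 in the flox/flox contrast. With the longest transcript as the length, Pcgf5 over Pcgf3 was 0.563 against 0.356, and Cbx7 over Cbx6 0.121 against 0.153, as means of the 10 libraries.

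Leaving out 1 library at a time gave 117 genes higher (without BrapcKO 21) to 617 (without BrapcKO 05), and 289 lower (without BrapcKO 21) to 880 (without control 24). It called 0 to 2 of the 9 lower, 0 to 2 variant PRC1 genes and 0 to 4 developmental genes. Fold changes ran from -0.16 to 0.055 for Ring1, -0.041 to 0.056 for Rnf2, -0.051 to 0.057 for Bmi1, -0.066 to 0.38 for Pcgf1 and -0.078 to 0.38 for Pcgf2. In the flox/ko contrast 0 to 1 of the 9 were called (Pcgf5 without control 09, control 24 or BrapcKO 21, in fits calling 5.92%, 5.9% and 2.26% of all genes), with Bmi1 at -0.10 to 0.027, Pcgf2 at -0.14 to 0.35 and Cbx7 at -0.17 to 0.031. In the flox/flox contrast Ring1 ran from -0.063 to 0.16, Rnf2 from -0.049 to 0.39, Bmi1 from -0.11 to 0.27, Pcgf1 from -0.65 to 0.29, Pcgf2 from -0.15 to 0.57 and Pcgf5 from -0.29 to 0.44. The difference of the contrasts ran from -0.43 to 0.0097 for Rnf2, -0.25 to 0.14 for Bmi1, -0.22 to 0.72 for Pcgf1, -0.64 to 0.086 for Pcgf2 and -0.014 to 0.13 for Cbx6. The causes of these changes were not tested, beyond the fewer libraries that leaving 1 out or using 1 code leaves. The Epop call was made in all 20 alternatives, of which filterByExpr removed 0 genes and so repeats the main fit.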
